A study of Rattus norvegicus with 22 samples.

Results

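The B cell and plasma cell genes described here are 9 of the 16893 gene symbols measured in oral squamous cell carcinoma (OSCC) and adjacent phenotypically normal tongue of the rat. Their roles set the order below. Mzb1, Igj, Derl3, Pou2af1, Tnfrsf17 and Irf4 are plasma cell genes, Cd79b and Ms4a1 are genes of mature B cells, and Pigr encodes the epithelial receptor that carries secreted immunoglobulin. Each member was found by its symbol in the array annotation, with the brightest probe over the 22 arrays where a gene had several. Mzb1 stands there under the older name RGD1310251 and was found through its transcript accession. The members were picked by name, without a threshold on measured values, but the list was proposed with earlier results of these data in view. Counts over the members are therefore descriptions only.

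The arrays measured paired tissue of 11 male F344 rats. All rats had received the carcinogen 4-NQO in drinking water at 20 ppm for 10 weeks, were labelled as about 33 weeks old and gave tissue between 23 and 26 weeks after the first exposure. The titles of all 22 arrays read untreated, and the labels of the normal pieces state no treatment, but the deposited protocol takes the normal piece of each pair from the tongue of the same exposed rat. Carcinogen exposure was thus shared by both groups, and no unexposed tongue was analysed here.

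B lymphocytes recognise antigen through a surface immunoglobulin whose signal passes through the Cd79a and Cd79b chains, and they carry Ms4a1 (the CD20 antigen) until they mature into antibody-secreting cells. Plasma cells lose much of the B cell surface program, enlarge the endoplasmic reticulum and secrete immunoglobulin, and Prdm1, Irf4 and Xbp1 are known regulators of that change. In oral tissue plasma cells lie mostly around salivary glands, where the joining chain (Igj, now Jchain) links immunoglobulin units and Pigr on gland epithelium moves the polymers into saliva.

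RefSeq (build GRCr8) gave a promoter window of 300 bases, from 250 bases before the gene start to 50 after it, for 5 of the 9 members (Igj under Jchain, Derl3, Tnfrsf17, Irf4 and Pigr) and for 31 of the 40 other plasma cell and mature B cell genes listed for comparison. The windows were searched on both strands for 5 motifs of B cell and secretory cell factors. They are the octamer ATGCAAAT (found in 1.78% of all 33469 windows), the endoplasmic reticulum stress element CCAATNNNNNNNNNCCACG (0.0657%), the unfolded protein response element TGACGTG (1.81%), the Ets-IRF composite element GGAANNGAAA (2.94%) and the interferon-stimulated response element GAAANNGAAA (3.92%). The last of these differs from the Ets-IRF element at 1 letter, and 0 of the 36 windows held both. No matches overlapped in the windows shown. The windows below are those of Derl3 and of the 2 other genes with the stress element, of Tnfrsf17 and Blnk with 1 match each, and of Igj, which had none. They are shown because these genes are compared below, and they were chosen after the matches were seen. Capitals mark the matches.
Derl3, chr20:12766416-12766715, minus strand: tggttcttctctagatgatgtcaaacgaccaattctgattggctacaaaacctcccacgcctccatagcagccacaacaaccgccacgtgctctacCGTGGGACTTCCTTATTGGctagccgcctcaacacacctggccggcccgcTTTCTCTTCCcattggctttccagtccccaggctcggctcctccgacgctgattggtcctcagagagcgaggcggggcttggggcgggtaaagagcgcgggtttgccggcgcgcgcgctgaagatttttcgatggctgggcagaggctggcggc
Creld2, chr7:121789134-121789433, plus strand: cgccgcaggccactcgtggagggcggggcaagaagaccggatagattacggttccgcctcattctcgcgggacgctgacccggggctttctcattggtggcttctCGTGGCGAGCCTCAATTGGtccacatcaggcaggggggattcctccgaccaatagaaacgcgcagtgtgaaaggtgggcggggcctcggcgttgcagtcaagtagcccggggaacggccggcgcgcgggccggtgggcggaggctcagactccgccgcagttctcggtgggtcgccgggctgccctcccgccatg
Xbp1, chr14:84604373-84604672, plus strand: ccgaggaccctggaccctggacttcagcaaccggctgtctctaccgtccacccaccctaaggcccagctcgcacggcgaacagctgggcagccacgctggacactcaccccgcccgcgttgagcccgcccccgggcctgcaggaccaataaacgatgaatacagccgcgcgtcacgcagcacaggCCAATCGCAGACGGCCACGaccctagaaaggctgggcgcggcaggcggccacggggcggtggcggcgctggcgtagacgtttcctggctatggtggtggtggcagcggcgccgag
Tnfrsf17, chr10:4813723-4814022, minus strand: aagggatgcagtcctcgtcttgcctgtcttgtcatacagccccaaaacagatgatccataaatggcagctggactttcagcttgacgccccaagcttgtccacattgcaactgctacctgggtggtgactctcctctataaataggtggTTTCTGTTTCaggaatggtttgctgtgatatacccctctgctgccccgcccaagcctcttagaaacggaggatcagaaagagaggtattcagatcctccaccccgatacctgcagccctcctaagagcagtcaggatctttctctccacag
Blnk, chr1:249770484-249770783, minus strand: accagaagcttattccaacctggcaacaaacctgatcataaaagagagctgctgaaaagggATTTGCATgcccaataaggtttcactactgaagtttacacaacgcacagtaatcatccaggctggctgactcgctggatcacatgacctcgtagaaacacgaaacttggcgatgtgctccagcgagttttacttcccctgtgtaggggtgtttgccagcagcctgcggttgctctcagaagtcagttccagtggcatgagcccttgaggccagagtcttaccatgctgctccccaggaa
Igj (Jchain), chr14:19822726-19823025, plus strand: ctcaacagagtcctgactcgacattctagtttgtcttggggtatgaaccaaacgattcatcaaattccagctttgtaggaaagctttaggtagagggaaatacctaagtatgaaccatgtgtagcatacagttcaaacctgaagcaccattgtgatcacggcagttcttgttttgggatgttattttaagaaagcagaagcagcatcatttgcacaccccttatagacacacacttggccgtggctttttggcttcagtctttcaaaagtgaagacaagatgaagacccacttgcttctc
In Derl3 the stress element began 154 bases before the gene start and the Ets-IRF element 104 bases before it. The stress element began 145 bases before the start of Creld2 and 65 before that of Xbp1. The interferon-stimulated element of Tnfrsf17 began 101 bases and the octamer of Blnk 189 bases before the start. A match describes these letters only and is not evidence of binding.

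Log2 expression is given throughout as the log2 processed signal minus that of the array's 75th percentile, so that 0 equals the 75th percentile of the array, and levels are compared only within a probe. The 75th percentile ranged from 236.8 to 654.9 signal units over the normal arrays and from 338.7 to 1414 over the OSCC arrays. A probe was called when limma, with rat and tissue as terms, gave a Benjamini-Hochberg adjusted p below 0.05 over all 30367 probes together with a change of at least 2-fold. Scanning took 2 days, the first for all normal arrays and the OSCC arrays of animals 4 and 9, the second for the remaining 9, and no slide held both tissues. Of the 9 members 6 were called higher in OSCC and 0 lower, or 66.7% higher, while 7.83% of all gene symbols were called higher and 7.19% lower. The normal and OSCC arrays did not overlap for 3 members (0.734% of all gene symbols, OSCC higher), and 4 members were higher in OSCC in all 11 pairs (4.88% of all gene symbols). The median log2 difference of all gene symbols was -0.19. On the normal arrays 7 of the 9 members were never well above background, a flag set by the scanner software, so for these genes a lower limit of the fold is given where it exceeds 1, and otherwise the log2 difference of the signals as measured. Of all probes, 48.42% to 56.1% carried that flag on the normal arrays and 52.28% to 65.49% on the OSCC arrays. The part of this difference in the numbers of arrays above background given below was not tested.

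**Figure D1:**
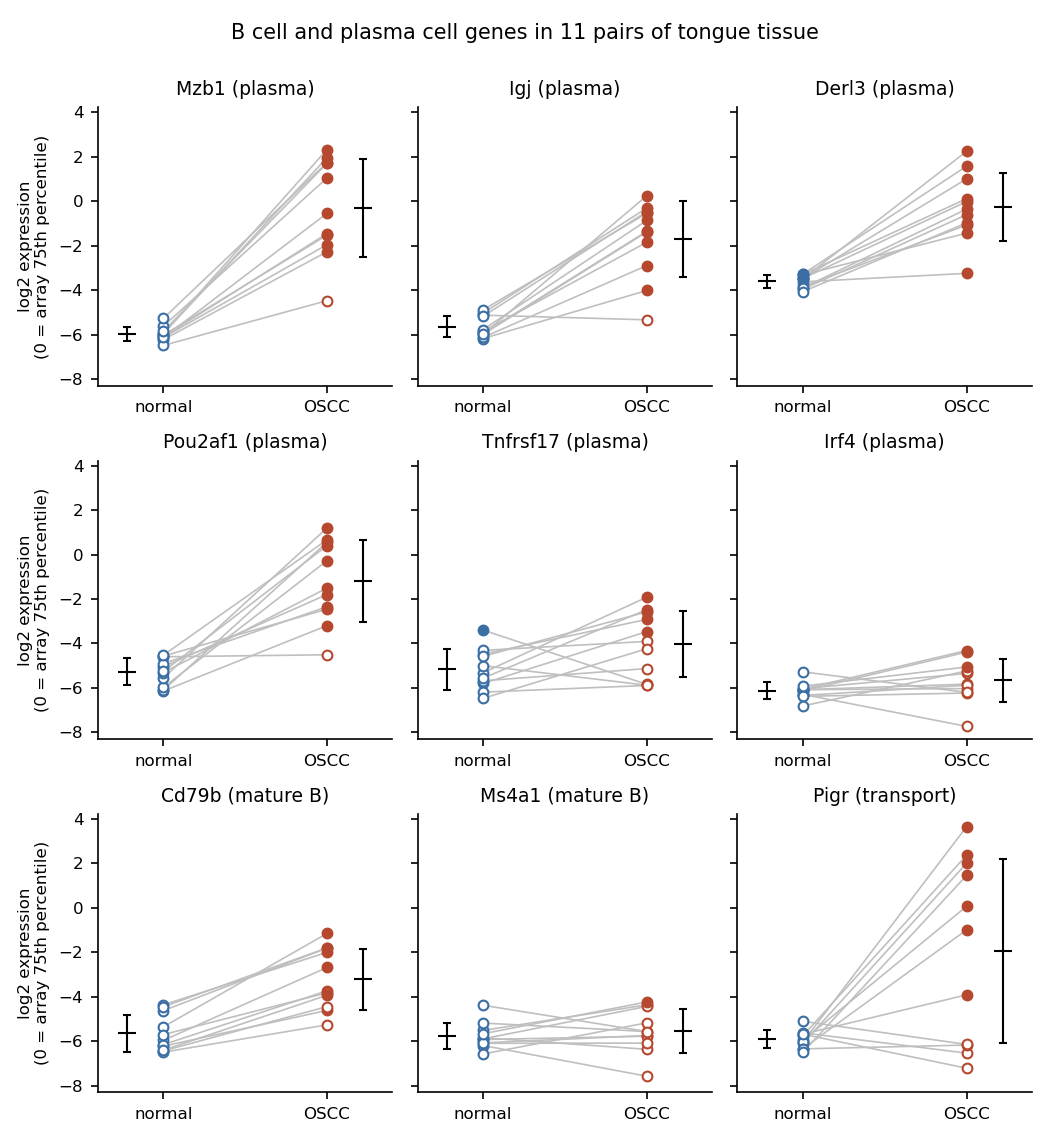
Log2 expression of the 9 members (y axis, 0 is the array's 75th percentile) in normal tissue and OSCC, with 1 grey line per rat. Filled points were well above background and open points were not, and the black bars give the mean and SD of the 11 arrays. Mzb1, Derl3 and Pou2af1 show no overlap between tissues, Ms4a1 and Irf4 remain near background in both, and Pigr spreads from -7.21 to 3.65 in OSCC.

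Mzb1 encodes a chaperone of the endoplasmic reticulum that assists immunoglobulin assembly in plasma cells and marginal zone B cells. Its probe (chr18:28262790-28262849, rn4) had log2 expression that ran from -6.49 to -5.28 on the normal arrays (median -6.03) and from -4.48 to 2.32 on the OSCC arrays (median -0.55). Every OSCC array lay above every normal array. The highest OSCC levels were those of animals 13 (2.32), 9 (1.95), 26 (1.73) and 25 (1.70), and the lowest was that of animal 22 (-4.48), the only OSCC piece not well above background. Mzb1 exceeded its normal level at least 11.9-fold (limma adjusted p = 8e-05, higher in 11 of 11 pairs).

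Pou2af1 encodes the coactivator OCA-B, which works with octamer-binding factors in B cells and plasma cells. At the brightest of its 3 probes (chr8:54561268-54561327, rn4) levels ranged from -6.14 to -4.53 on the normal arrays (median -5.26) and from -4.51 to 1.19 on the OSCC arrays (median -1.51). The tissues did not overlap, but the gap was narrow, because the lowest OSCC array (animal 22, -4.51) lay just above the highest normal array (animal 25, -4.53). OSCC exceeded normal tissue at least 6.44-fold (limma adjusted p = 0.00044, 11 of 11 pairs). The other 2 probes differed by 1.29 (adjusted p = 0.038) and 1.28 (adjusted p = 0.029) on the log2 scale, against 4.06 at the brightest probe, and each was well above background on 5 OSCC arrays and no normal array.

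Igj encodes the joining chain of polymeric IgA and IgM. Its level (chr14:21125752-21125811, rn4) ran from -6.18 to -4.89 on the normal arrays (median -5.86) and from -5.34 to 0.24 on the OSCC arrays (median -1.36). In 10 OSCC pieces Igj exceeded every normal piece, and only that of animal 22 (-5.34) fell within the normal range. The difference was at least 4.55-fold (limma adjusted p = 0.00021, 10 of 11 pairs).

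Derl3 encodes a membrane protein that helps remove misfolded proteins from the endoplasmic reticulum, and it is active in secretory cells of several kinds. It was the member best measured in normal tissue, with signal well above background on 7 normal arrays and all 11 of OSCC. Levels (chr20:13163303-13163362, rn4) ranged from -4.07 to -3.28 on the normal arrays (median -3.49) and from -3.25 to 2.24 on the OSCC arrays (median -0.36). The tissues did not overlap, and the lowest OSCC level was again that of animal 22. The log2 difference was 3.36 (standard error, SE, 0.39), a 10.2-fold ratio (limma adjusted p = 2e-04, 11 of 11 pairs), and a second Derl3 probe gave 3.97 (adjusted p = 0.00018). The highest OSCC levels of Derl3 were those of animals 17 (2.24) and 9 (1.57), a different order from that of Mzb1.

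Tnfrsf17 encodes the B cell maturation antigen, the receptor through which plasma cells receive survival signals from Tnfsf13 and Tnfsf13b. Its level (chr10:4187731-4187790, rn4) ran from -6.47 to -3.40 on the normal arrays (median -5.32) and from -5.89 to -1.92 on the OSCC arrays (median -3.91), with wide overlap. The OSCC pieces of animals 9 (-1.92), 25 (-2.48), 26 (-2.58) and 13 (-2.92) exceeded every normal piece. The log2 difference of 1.14 (SE 0.48) was not called (limma adjusted p = 0.068, higher in 9 of 11 pairs). In the pair of animal 4 it was -2.44, and without that pair the difference was 1.50 and was called.

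Irf4 encodes an interferon regulatory factor needed for plasma cell differentiation. It was well above background on no normal array and on 3 OSCC arrays (animals 9, 13 and 25). Levels (chr17:40173826-40173885, rn4) ranged from -6.81 to -5.28 on the normal arrays (median -6.08) and from -7.73 to -4.32 on the OSCC arrays (median -5.83). The log2 difference of 0.47 (SE 0.29) was not called (limma adjusted p = 0.19), and a change could not be resolved at this signal.

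The mature B cell members differed from each other. Cd79b, a signalling chain of the B cell receptor (chr10:95703614-95703673, rn4), had levels that ran from -6.49 to -4.36 on the normal arrays (median -5.96) and from -5.26 to -1.15 on the OSCC arrays (median -3.73). The tissues overlapped, but Cd79b was higher in OSCC within every pair, by 1.23 (animal 22) to 4.20 (animal 13) on the log2 scale. It was well above background on 8 OSCC arrays and no normal array and at least 1.62-fold higher there (limma adjusted p = 8e-05).

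Ms4a1, which encodes CD20 (chr1:213764136-213764195, rn4), ranged from -6.57 to -4.38 on the normal arrays (median -5.89) and from -7.57 to -4.23 on the OSCC arrays (median -5.56). It was well above background on 2 OSCC arrays, those of animals 9 and 25, and on no normal array. The log2 difference of 0.22 (SE 0.29, limma adjusted p = 0.53) was not called, and its sign was positive in 7 pairs and negative in 4. In whole tissue, fewer cells of a type and less RNA per cell cannot be told apart, here and for all genes below.

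Pigr encodes the polymeric immunoglobulin receptor of secretory epithelium and is not a gene of B cells. Its level (chr13:43802502-43802936, rn4) ran from -6.49 to -5.10 on the normal arrays (median -5.96), never well above background. In OSCC it ranged from -7.21 to 3.65 (median -0.99). It was well above background in 7 OSCC pieces, with the highest levels in animals 17 (3.65), 9 (2.37), 16 (2.01) and 24 (1.46), and stayed within or below the normal range in animals 13, 22, 25 and 26. The OSCC level of Pigr was at least 3.87 times the normal level (limma adjusted p = 0.019), and the sign was positive in 8 of 11 pairs.

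The plasma cell members were set against the mature B cell members within each pair by the mean log2 difference of each group, in which signals below background entered unchanged. The mean of the 6 plasma cell genes was 3.10 ± 1.35 (SD, n = 11 pairs) and that of the 2 mature B cell genes 1.34 ± 0.82. The plasma cell mean exceeded the mature B cell mean by 1.77 ± 0.95, and it did so in 10 of 11 pairs. The excess was largest in animals 9 (3.15), 17 (2.94) and 26 (2.46) and was -0.12 in animal 22, in which both means were small (0.49 and 0.62). These values describe the contrast and were not tested, because the members were chosen with results known.

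The contrast depended on which genes stood for each cell type. Mzb1 exceeded Cd79b in its log2 difference in 11 of 11 pairs, by 3.22 ± 1.39 (SD, n = 11 pairs), Pou2af1 and Igj in 10 pairs each and Derl3 in 7. Tnfrsf17 exceeded Cd79b in 2 pairs and Irf4 in 0. Cd79b in turn exceeded Ms4a1 in all 11 pairs, by 2.22 ± 0.91 (SD, n = 11 pairs). Irf4, Ms4a1 and Tnfrsf17, the members with small differences, were also those with the fewest OSCC arrays well above background (3, 2 and 5), and the part of low signal in the contrast was not tested.

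**Figure D2:**
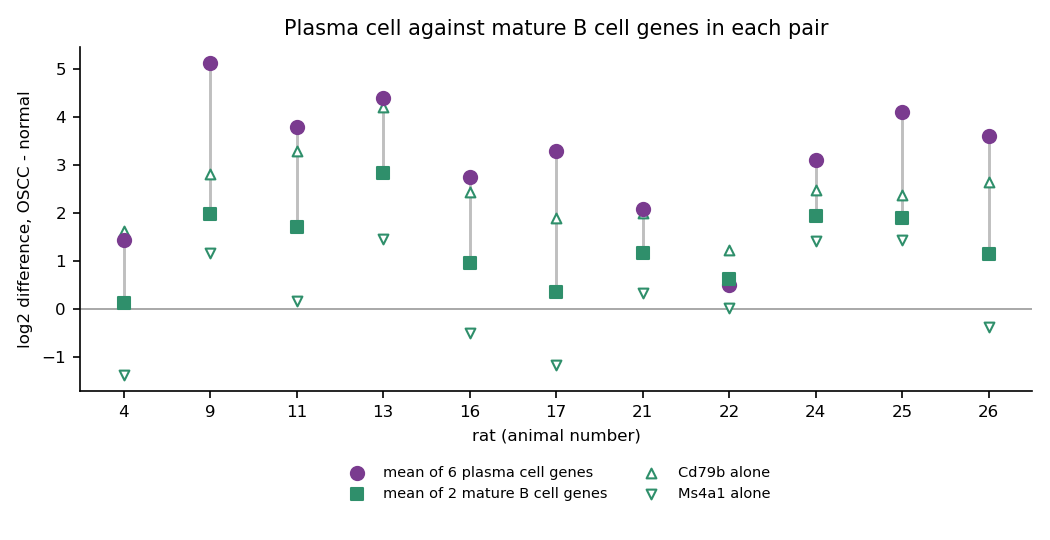
Log2 difference, OSCC minus normal (y axis), in each of the 11 rats (x axis), as the mean of the 6 plasma cell genes (circles) and of the 2 mature B cell genes (squares), with Cd79b and Ms4a1 also shown alone (triangles). The circles lie above the squares in 10 rats, and in animal 22 both are near 0.

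Scan day moved with tissue in 9 of the 11 pairs. In the 2 pairs scanned within 1 day the differences of Mzb1 were 3.95 (animal 4) and 7.90 (animal 9), those of Pou2af1 2.93 and 6.64, those of Igj 2.15 and 6.23, those of Derl3 3.46 and 4.85, those of Cd79b 1.62 and 2.81, and those of Pigr 6.03 and 8.12 on the log2 scale. All 6 called members were thus higher in OSCC in both of these pairs, and the plasma cell excess over mature B cell genes was 1.32 and 3.15. Both pairs were among the 11 that gave the calls, so this is not a separate check. The share of all gene symbols higher in both pairs is not given here. In these 2 pairs Ms4a1 had -1.39 and 1.15, and Tnfrsf17 -2.44 and 3.40. In animal 4 Ms4a1 was well above background in neither tissue, and the same held for Irf4 (-1.44). The excess of 1.32 in that pair thus rests in part on signals at background. In the 9 pairs split over scan days alone, limma called 6 members, with Tnfrsf17 (1.28, adjusted p = 0.034) and without Pigr (3.28, adjusted p = 0.097). With scan day as a further term limma called 0 members at the adjusted p, and of all 30367 probes 0 higher and 3 lower. An unadjusted p below 0.05 with a 2-fold change was reached by 6 members, and by 9578 of the 30367 probes in either direction. In that fit Mzb1, Igj, Derl3, Pou2af1 and Cd79b each had an adjusted p of 0.085 and Pigr one of 0.091. After normexp background correction the differences were smaller, 2.37 for Mzb1, 1.70 for Derl3, 1.54 for Pou2af1 and 1.23 for Igj, all still called, while Cd79b (0.48, adjusted p = 0.47) and Pigr (1.64, adjusted p = 0.13) were not. The corrected differences of these genes other than Derl3, for which no limit is given, lie below the lower limits of the fold stated above, so those limits hold for the processed signals only. Pigr also lost its call with slide as a random block (3.92, limma adjusted p = 0.065).

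Over the 11 OSCC arrays the members fell into different patterns. These correlations are descriptions over arrays that share scaling and, in part, slides and scan days. Mzb1, Pou2af1 and Cd79b varied together from piece to piece, with Pearson's r of 0.99 between Mzb1 and Pou2af1, 0.97 between Mzb1 and Cd79b and 0.98 between Pou2af1 and Cd79b (Spearman's rho 0.95, 0.98 and 0.95). Igj followed the same order (r = 0.87 with Mzb1), and Tnfrsf17 did so more loosely (r = 0.78). Cd79b, counted here with mature B cells, had r = 0.72 with Ms4a1. Irf4 and Ms4a1, both near background, had r = 0.93 with each other.

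Derl3 and Pigr followed another order. Derl3 had r = 0.30 with Mzb1, 0.59 with Igj and 0.75 with Pigr, and Pigr had r = -0.27 with Mzb1. The mean log2 expression of 11 markers of serous and mucous glands (among them Amy1a, Bpifa1, Aqp5, Lpo and Muc5b) ranged from -2.99 to 7.47 over the OSCC arrays and from -5.49 to -3.47 over the normal arrays. It correlated with Pigr (r = 0.96, rho = 0.95) and Derl3 (r = 0.79, rho = 0.75), and had r = -0.18 with Mzb1 and 0.13 with Igj. All 11 gland markers were called higher in OSCC (median log2 difference 7.46), and 5 of them were well above background on no normal array. In animals 25 and 26, where the gland mean was lowest (-2.99 and -2.87), Pigr was at background while Mzb1 was high (1.70 and 1.73). In animals 17 and 24, with gland means of 7.47 and 5.86, Pigr was high (3.65 and 1.46) and Mzb1 lower (-1.46 and -1.96). Animal 9 had high levels of both. Derl3 also had r = 0.79 with the mean of the other plasma cell genes listed below. The part of gland tissue in the Derl3 and Pigr differences was not tested.

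**Figure D3:**
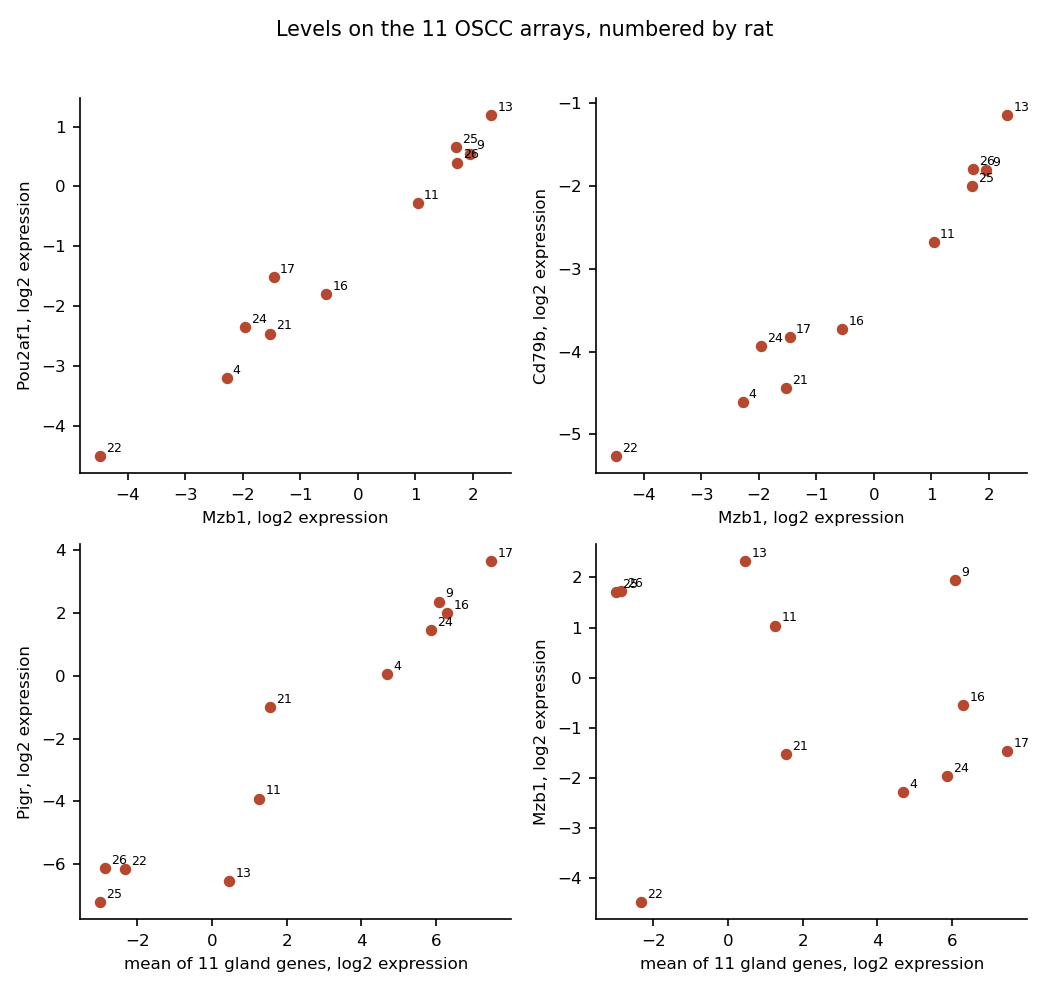
Log2 expression on the 11 OSCC arrays, 1 point per rat with its animal number. The upper panels set Pou2af1 and Cd79b against Mzb1 and show near-straight orders (r = 0.99 and 0.97), and the lower panels set Pigr (r = 0.96) and Mzb1 (r = -0.18) against the mean of the 11 gland markers.

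Immunoglobulin chains, the product of plasma cells, were measured by 12 probes named as such in the array annotation, and limma called 8 of them higher and 0 lower (median log2 difference 2.48), beside 6.86% of all probes called higher and 6.97% lower. Among the 12 there was no probe annotated as an Ig alpha or Ig mu heavy chain, so the heavy chains of IgA and IgM were not followed. The constant regions of the immunoglobulin heavy chains are much alike in sequence, so that a probe may also bind transcripts of a related chain. The Ig gamma-2A constant region (chr6:138346476-138346535, rn4) averaged 5.31 ± 2.37 in OSCC (SD, n = 11) and -3.45 in normal tissue, and single OSCC pieces ranged from 1.39 to 7.97. Its log2 difference of 8.76 (SE 0.66, limma adjusted p = 3.5e-05) held in 11 of 11 pairs. The probe was well above background on 5 normal arrays. One Ig gamma-2B probe (chr6:138287978-138288146, rn4) differed by 8.69 (SE 1.02, limma adjusted p = 0.00021, 10 of 11 pairs), while the other 2 probes annotated as Ig gamma-2B differed by 2.74 and 1.23.

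Light chains showed the same direction. The brighter of the Ig lambda-2 constant region probes (chr11:84194673-84194732, rn4) differed by 7.93 (SE 0.87, limma adjusted p = 0.00017, 10 of 11 pairs), and the other was at least 7.67-fold higher. The kappa VJ1 region probe, listed as RGD1563231, was at least 10.3-fold higher (adjusted p = 0.00045), and Igkv28, well above background on 5 OSCC arrays and no normal array, differed by 2.22 (limma adjusted p = 0.0072). Probes for Ig epsilon (-0.21), Ig delta (0.28), Ig gamma-1 (0.46) and an Ig G heavy chain transcript (0.79, adjusted p = 0.12) were not called. The Ig G heavy chain probe was well above background on all 11 normal and all 11 OSCC arrays, with a mean of -0.43 in normal tissue. The Ig delta chain, which mature B cells carry on the surface, was well above background on 1 OSCC array and no normal array, and the Ig epsilon chain on 1 normal array and no OSCC array. Over the OSCC arrays the Ig gamma-2A probe correlated with Mzb1 (r = 0.97) and not with the gland markers (r = -0.31), and the brighter Ig lambda-2 probe did likewise (r = 0.95 and -0.12).

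**Figure D4:**
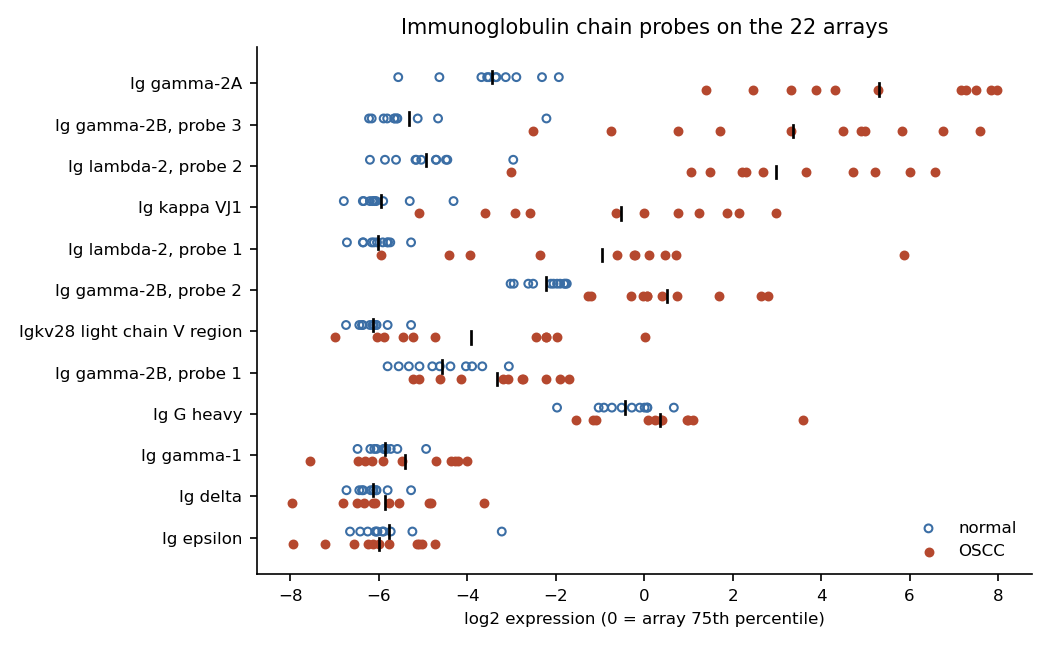
Log2 expression (x axis, 0 is the array's 75th percentile) of the 12 immunoglobulin chain probes (y axis, ordered by the difference between tissues) on the 11 normal arrays (open points) and 11 OSCC arrays (filled points), with means as black bars. The Ig gamma-2A, 1 Ig gamma-2B and 1 Ig lambda-2 probe reach 6.57 to 7.97 in single OSCC pieces, and the Ig epsilon, Ig delta and Ig gamma-1 probes stay near background in both tissues.

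Of 20 other plasma cell genes listed, 17 were on the array, and 7 were called higher and 0 lower, with a median log2 difference of 0.84 (3.65 for the 6 plasma cell members, which were chosen with results known). Among the regulators, Prdm1 (Blimp-1) rose by 1.12 (SE 0.28, limma adjusted p = 0.0087, 9 of 11 pairs). Prdm1 was well above background on all 11 normal arrays, where Mzb1 was on none, and had r = 0.54 with Mzb1 over the OSCC arrays. The cells that gave the Prdm1 signal were not identified. Xbp1, the transcription factor of the unfolded protein response, differed by 0.84 (limma adjusted p = 0.0031, 10 of 11 pairs), less than 2-fold. Sdc1 (CD138), a plasma cell marker also carried by squamous epithelium, had log2 expression of 4.20 in normal tissue and 4.40 in OSCC, and the difference of 0.20 was not called (adjusted p = 0.48). The largest differences among the called genes were those of Tent5c (2.26), a stabiliser of secretory protein transcripts, Fkbp11 (2.17), a folding enzyme of secretory cells, Cd38 (1.64), a surface enzyme of plasma cells, and Creld2 (1.49), a chaperone of the endoplasmic reticulum. Tent5c lacked a value on 1 array, so that 10 pairs were compared.

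Over the OSCC arrays the genes of this list had different likeness to Mzb1 and to the gland markers. Slamf7, a surface receptor of plasma cells (log2 difference 0.98, adjusted p = 0.036, just under 2-fold), had r = 0.82 with Mzb1 and -0.42 with the gland markers, and Cd38 had 0.67 and -0.28. The secretory pathway genes Fkbp11 and Sec11c had r = 0.75 and 0.78 with the gland markers and 0.28 and 0.17 with Mzb1, and Xbp1 had 0.79 and -0.07. Other genes of that pathway lay between, with r of 0.55 and 0.44 for Edem2 and 0.39 and 0.43 for Txndc11. These examples were chosen after their values were seen. Of the 3 genes whose promoter windows held the stress element, Derl3 and Xbp1 each had r = 0.79 with the gland markers, and Creld2 had 0.34 with the gland markers and 0.65 with Mzb1.

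Of 20 other mature B cell genes 18 were on the array, and 6 were called higher and 0 lower (median log2 difference 0.49). Blnk, the adaptor below the B cell receptor, differed by 1.84 (SE 0.29, limma adjusted p = 7e-04, 11 of 11 pairs). Blk, a B cell Src-family kinase, was well above background on 8 OSCC arrays and no normal array and was at least 1.31-fold higher (adjusted p = 0.0024). The other called genes with the largest differences were Cd22, an inhibitory receptor of B cells (1.38, well above background on 6 OSCC arrays and no normal array), and Btk, a kinase of B cells and myeloid cells (1.19). Pax5, a transcription factor that maintains B cell identity, was not called (-0.21, limma adjusted p = 0.16). Ebf1, another transcription factor of B cells and well above background on all 22 arrays, differed by -0.83 (limma adjusted p = 0.0034, lower in 9 of 11 pairs), less than 2-fold. Cd79b and Ms4a1, in contrast, were well above background on no normal array, and the cells that gave the Ebf1 signal were not identified. Bank1, Cr2 and Fcer2, genes of resting and follicular B cells, were well above background on no array. Of the 5 germinal centre genes on the array 0 were called, with a median log2 difference of -0.22, and Rgs13 was well above background on no array.

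Factors that attract or sustain plasma cells and B cells were followed through 14 genes, of which 5 were called higher and 0 lower (median log2 difference 0.36). Tnfsf13 (APRIL), a ligand of Tnfrsf17, ranged from -2.05 to -0.96 on the normal arrays (median -1.13) and from -0.78 to 1.94 on the OSCC arrays (median 0.30). The tissues did not overlap, and the log2 difference was 1.79 (SE 0.23, limma adjusted p = 0.00033). Over the OSCC arrays Tnfsf13 had r = 0.65 with the gland markers and 0.31 with Mzb1. Tnfsf13b (BAFF), the other ligand of that receptor, was well above background on 1 OSCC array and no normal array (0.11, adjusted p = 0.8). Cxcl13, which attracts B cells, rose by 3.61 (SE 0.83, limma adjusted p = 0.0054, 10 of 11 pairs) and followed Mzb1 over the OSCC arrays (r = 0.77). Il10 was at least 1.58-fold higher (adjusted p = 0.0022, r = 0.71 with Mzb1), and Il6 differed by 1.09 (limma adjusted p = 0.033), well above background on 4 OSCC arrays. Ccl28, an epithelial chemokine that recruits IgA plasma cells to glands, was at least 2.3-fold higher (adjusted p = 0.035) and followed the gland markers (r = 0.97) and not Mzb1 (r = -0.26). Its receptor Ccr10, listed with the plasma cell genes, differed by -0.89 (limma adjusted p = 0.0074, less than 2-fold). Cxcl12, which holds plasma cells in bone marrow, had log2 expression of 1.09 in normal tissue and 0.97 in OSCC (difference not called, adjusted p = 0.7).

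**Figure D5:**
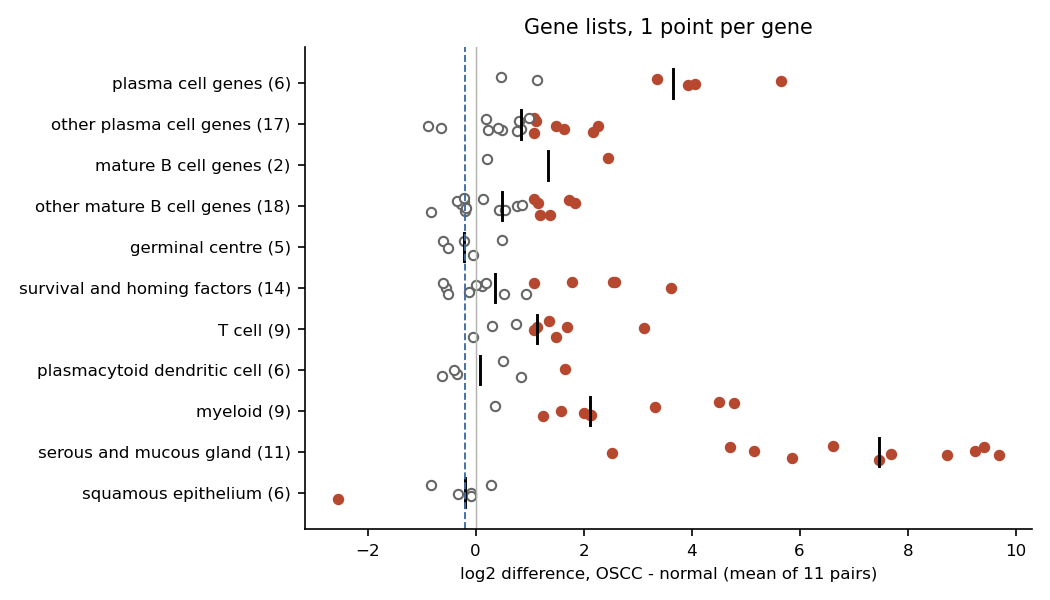
Log2 difference, OSCC minus normal (x axis, mean over 11 pairs), of each gene in 11 lists (y axis), with called genes filled, other genes open, list medians as black bars and the median of all gene symbols (-0.19) as a dashed line. Gland markers lie farthest right (median 7.46), the plasma cell members have a median of 3.65, and germinal centre and squamous epithelium genes centre on -0.22 and -0.20.

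Markers of other leukocytes were followed in the same tissue. Of 9 T cell genes 6 were called higher (median log2 difference 1.13), and their mean log2 expression ranged from -4.14 to -2.37 over the normal arrays and from -3.47 to -1.09 over the OSCC arrays. Of 9 myeloid genes 8 were called higher (median 2.11), with means from -1.95 to -0.59 in normal tissue and from -0.41 to 2.52 in OSCC. Mzb1 had r = 0.68 with the T cell mean and 0.72 with the myeloid mean over the OSCC arrays. Among the T cell genes Cd5 differed by -0.05 and was not called. Plasmacytoid dendritic cells can also express Mzb1 and Derl3. Of 6 genes of these cells only Siglech was called (1.65, limma adjusted p = 0.0029, well above background on 5 OSCC arrays and no normal array), and the median difference was 0.08. Il3ra (-0.62, limma adjusted p = 0.0049) and Tcf4 (-0.34, adjusted p = 0.027) were each lower in 10 of 11 pairs, by less than 2-fold. The mean of these 6 genes had r = 0.70 with Mzb1 and -0.01 with Derl3 over the OSCC arrays. The part of these cells in the member differences was not tested. Squamous epithelium was followed through 6 genes, all well above background on every array. Krt15 was called lower and the other 5 were not called. The presence of these genes in both tissues does not check which piece was OSCC.

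Outside these lists, the genes whose levels over the 11 OSCC arrays were most like Mzb1, among 11212 gene symbols well above background on at least 6 OSCC arrays, were V1rj3 (r = 0.91), Orc2l (0.90), Nfya (0.89), Tcf20 (0.89) and Clec11a (0.89). Of these only Clec11a was called higher in OSCC (log2 difference 2.17). Those most like Ms4a1 were Son (0.91), RGD1565685 (0.86), Kif2a (0.85), Slc18a3 (0.83) and Terf2 (0.80), and 0 of these 5 were called.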

How the data were processed

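RNA of 22 tongue pieces was hybridized to one-color Agilent Rat GE 4x44K v3 arrays. The deposited intensity values are Feature Extraction (9.5.3.1) processed signals, which the authors' software had background-subtracted and detrended, on a linear scale not normalized between arrays. Control spots and 9196 outlier spots (0.975%) were left out, spots of a probe were averaged as log2 values, and each array was centred on its own 75th percentile. Probe positions are those of the annotation (rn4).

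The paired comparison, two-sided, used limma 3.58.1 (R 4.3.3) with the terms and thresholds given above, and no filter on dim probes. The script was tested on simulated data. Pairing comes from the rat. Over probes, the correlation of both tissues' deviations within a rat was -0.21 to 0.24 (median -0.02). The scaled signals that the authors also deposited, as a ratio to the 75th percentile, served as an alternative.

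A lower limit sets the OSCC mean against, on each normal array, the higher of the lowest signal among probes well above background and the gene's own. The precision of every value is limited by the number of arrays.

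The members and lists were chosen with earlier results of these data known. Named genes are all members, 10 fixed regulators and ligands, up to 5 called genes of a list (the 4 largest differences where more were called), and the 5 genes most like Mzb1 and Ms4a1. Some named genes are not reported here. Examples outside this rule were added after their values were seen, and Pax5, Tent5c, Bank1 and others were matched through RefSeq (GRCr8). Cd79a, Tnfrsf13b, Tnfrsf13c, Txndc5, Fcrl5, Gcsam and Dcpp were not found in the array annotation by name or accession. Immunoglobulin probes were taken by their annotation, and 4 of the 12 were added after a first search by name had missed them.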

Additional observations from a re-analysis of the deposited data

How the results depend on the processing

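Of the 6 called members, Mzb1, Igj, Derl3 and Pou2af1 lost their call only with scan day as a term, and Cd79b also lost it with normexp background correction (log2 difference 0.48). Pigr lost it under those and with slide as a random block and in the pairs split over scan days. With scan day as a term 0 members, 0 immunoglobulin chain probes and 0 other listed genes were called in either direction. Of all 30367 probes 0 were called higher and 3 lower there, and Ms4a1 had a log2 difference of -0.12. That fit gave every member the mean of the 2 pairs scanned within 1 day. With normexp correction 4 members and 25 other listed genes were called higher, against 6 and 44, and Irf4 had -0.08. With the authors' scaled values, and without the pair of animal 4, Tnfrsf17 was also called, which made 7 members. Of other listed genes 1 was called lower; it was 4 with arrays scaled to their median and 3 without animals 21, 22 and 24. With each pair left out in turn, members called higher numbered 6 to 7, immunoglobulin probes 7 to 8, and other listed genes called higher 37 to 47 and lower 1 to 2, and the plasma cell excess ranged from 1.63 to 1.96. Over all alternatives that gave a value it stayed between 0.90 and 2.23. The filter to probes well above background on 6 arrays of a tissue gave no value for it, since Tnfrsf17, Irf4 and Ms4a1 were left out. Without the replicate block (pairing) limma called 6 members, and no member's call changed. Dim signal limits Irf4, Ms4a1 and Tnfrsf17.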
